A study of Mus musculus with 18 samples.

Results

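Contacts of Mtx2 were taken from 5C libraries of the HoxD region on mouse chromosome 2. Mtx2 lies on the plus strand at chr2:74663860-74716488 (mm9, ENSMUSG00000027099.9) and spans 52629 bp. A contact was counted as Mtx2-anchored when the 2 fragments lay at least 10 kb apart and at least one of them had its midpoint in the gene. By this rule 11 EcoRI fragments, 6 with a forward and 5 with a reverse primer, gave 685 of 4251 fragment pairs (16.1%) in the design used for embryonic stem cells (ESCs) and 1071 of 10068 (10.6%) in the larger design used for limb cells. Over both designs this came to 1756 of 14319 pairs. The fragments covered exons 4 to 10 of the 10 exons of the main coding transcript (ENSMUST00000028511.7). The promoter and exons 1 to 3 lie on fragments that carry no primer here.

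The study compared how 5C and fluorescence in situ hybridization read the folding of HoxD, and the 5C part holds 18 libraries in 9 groups. OS25 is a mouse ESC line, and its libraries came from undifferentiated cells (2) and from cells differentiated for 3 d, the last 2 d with retinoic acid (D3, 2). The remaining ESC libraries came from wild-type WTF18 cells (2), from Eed-/- cells (2), which lack a core subunit of the Polycomb complex PRC2, and from Ring1B-/- cells (3), which lack the E3 ligase of PRC1. Ring1BGWT (2) and Ring1BG53 (1) carry a Ring1B knockout genotype in the labels. The labels do not spell these names out, and the study describes Ring1B-/- cells given wild-type or catalytically mutant Ring1B. The Eed-/- cells were of more than 1 clone and their libraries are not assigned to a clone, so that clone and genotype cannot be told apart. The study lists the Eed mutant cells under a line name other than WTF18, so that line and genotype cannot be told apart either. By their labels, all ESCs were grown on feeder cells. A2 (2) and P2 (2) are immortalized mesenchymal lines made from distal forelimb buds of E10.5 Immortomouse embryos, A2 from the anterior and P2 from the posterior side. They were grown at 33°C with interferon, and each side of the bud is represented by 1 line. The text on differentiation also stands in the labels of the 2 undifferentiated OS25 libraries, which were assigned by title.

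In 5C, fixed chromatin is cut with a restriction enzyme and religated, and a forward and a reverse primer that meet at a ligation junction are joined and sequenced, so that the reads of a primer pair count how often its fragments were ligated. Mtx2 encodes metaxin 2, a protein of the outer mitochondrial membrane that takes part in protein import. It is a broadly expressed neighbour of the Hoxd genes, which encode homeobox transcription factors of body axis and limb patterning. The cluster runs from Hoxd13 at its 5′ end to Hoxd1 at its 3′ end, with Evx2 and Lnp beyond Hoxd13 and Mtx2 beyond Hoxd1. On both sides lie long gene deserts that are known for enhancers of the cluster.

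Partners of Mtx2 were grouped into windows by their position. These were the gene itself, the interval between Hoxd1 and Mtx2, 3′ Hoxd (Hoxd4, Hoxd3 and Hoxd1), 5′ Hoxd (Hoxd13 to Hoxd8), the 5′ flank (Evx2, Lnp and beyond), the 3′ desert beyond Mtx2 and, in the limb design alone, the far 5′ desert. A frequency is the number of reads of a pair per 1000 reads of the run, and the frequency of a window is the mean over its pairs, those without a read included.

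Libraries held 216419 to 2096681 reads in total and 14071 to 142917 reads on Mtx2-anchored pairs. At these depths 3 reads, the most that a pair without a read allows, correspond to frequencies of 0.00143 to 0.0139, which covers counting error only because PCR copies are not independent molecules. Between 25.4% and 65.7% of anchored pairs had no read in an ESC library, against 3.08% to 27.0% in a limb library. Replicates of one ESC group correlated at r = 0.217 to 0.498 over the log2 frequencies of 685 anchored pairs (8 library pairs), and libraries of different ESC groups at 0.169 to 0.614 (83 library pairs), so that ESC replicates were no closer to each other than to other groups. Limb libraries correlated at 0.653 and 0.731 within a line and at 0.609 to 0.802 between lines.

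Among the anchored pairs of highest mean frequency, 4 carry the results on single contacts. Their fragment ends are printed from the mm9 plus strand, with the EcoRI site at which they were cut and religated in capitals. Every fragment of both designs ends at this site. The first pair below joins an intron of Mtx2 to the intergenic 3′ desert and was the strongest contact of Mtx2 in ESCs. The second, from exon 10 to the desert, stood out in 1 library. The third joins the interval to exon 5 and differed widely between libraries of one group. The fourth joins a fragment between Hoxd8 and Hoxd4 to exon 10 and was the strongest long-range contact of Mtx2 in limb cells. That fragment lies in the long annotation of Hoxd3.
mHoxD_127, chr2:74702298-74702327: cttaatgtacatgtatgaggctcgGAATTC
mHoxD_139, chr2:74751761-74751790: cagaagattgtgaggagagaatctGAATTC
mHoxD_133, chr2:74716783-74716812: aaagtaaaacaggttttggttgaaGAATTC
mHoxD_158, chr2:74833403-74833432: atagaattttggtgtttggcaaaaGAATTC
mHoxD_98, chr2:74608213-74608242: tttttgccatccaaaatgacatatGAATTC
mHoxD_129, chr2:74705810-74705839: ctcaaacatagcaaacaagaagatGAATTC
mHoxD_82, chr2:74552543-74552572: tctactaatacgtatattttgccaGAATTC
mHoxD_132, chr2:74715125-74715154: tagttttcaaaggagtattgatggGAATTC

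Among the windows of the ESC design, frequency was highest inside Mtx2 and lowest with the 5′ flank, which are also the nearest and the farthest by median distance. Pairs inside the gene (15 pairs, 10.0 to 40.5 kb apart) had a lowest, median and highest frequency over the 14 ESC libraries of 0.169, 0.262 and 0.353. Pairs of the region without Mtx2 had medians of 0.575 at 10 to 20 kb and 0.351 at 20 to 40 kb. The median inside the gene was thus below those of the region at like distances. The 5′ flank, whose 226 pairs lie a median of 347 kb away, had 0.0317, 0.0522 and 0.0734, and stood below each of the other 5 windows in 14 of 14 libraries. Contacts inside the gene exceeded those with 5′ Hoxd, the interval, the 3′ desert and the 5′ flank in 14 of 14 libraries and those with 3′ Hoxd in 13 of 14. The exception was a D3 library.

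Between these extremes the 4 remaining windows could not be ordered. Median frequencies were 0.149 for 3′ Hoxd (60 pairs, range 0.0787 to 0.298), 0.130 for the 3′ desert (240 pairs, 0.109 to 0.224), 0.128 for 5′ Hoxd (61 pairs, 0.0920 to 0.213) and 0.125 for the interval (83 pairs, 0.0717 to 0.238). The ranges overlapped widely. 3′ Hoxd was above 5′ Hoxd in 9 of 14 libraries and above the 3′ desert in 10 of 14, and the 3′ desert was above the interval in 8 of 14. Distances differ as well, with a median of 80.6 kb for the interval, 128 kb for the desert, 134 kb for 3′ Hoxd and 181 kb for 5′ Hoxd. Because the 3′ desert holds 35.0% of anchored pairs, it took the largest part of the anchored signal, 37.8% to 49.0% per library. The 5′ flank took 9.49% to 18.8% of the signal with 33.0% of the pairs. Within it the fragment mHoxD_125 was at 0.225, and all other Mtx2 fragments were at 0.0629 or less.

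Limb cells showed a like order in their own design. Contacts inside Mtx2 were at 0.237 and 0.208 in A2 cells and at 0.180 and 0.197 in P2 cells. Limb pairs without Mtx2 had medians of 0.303 at 10 to 20 kb and 0.191 at 20 to 40 kb. Contacts with 3′ Hoxd were at 0.187 and 0.132 in A2 and at 0.178 and 0.156 in P2. Contacts with 5′ Hoxd lay between 0.120 and 0.137 in the 4 libraries, those with the interval between 0.109 and 0.147 and those with the 3′ desert between 0.0985 and 0.134. The gene itself was highest and 3′ Hoxd was above the interval and the 3′ desert in 4 of 4 libraries, while 3′ Hoxd was above 5′ Hoxd in 3 of 4. The 5′ flank followed at 0.0298 to 0.0396, and the far 5′ desert, with 393 pairs a median of 685 kb away, at 0.0206 to 0.0273. Limb and ESC frequencies come from different primer sets and were not compared by a test.

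**Figure D1:**
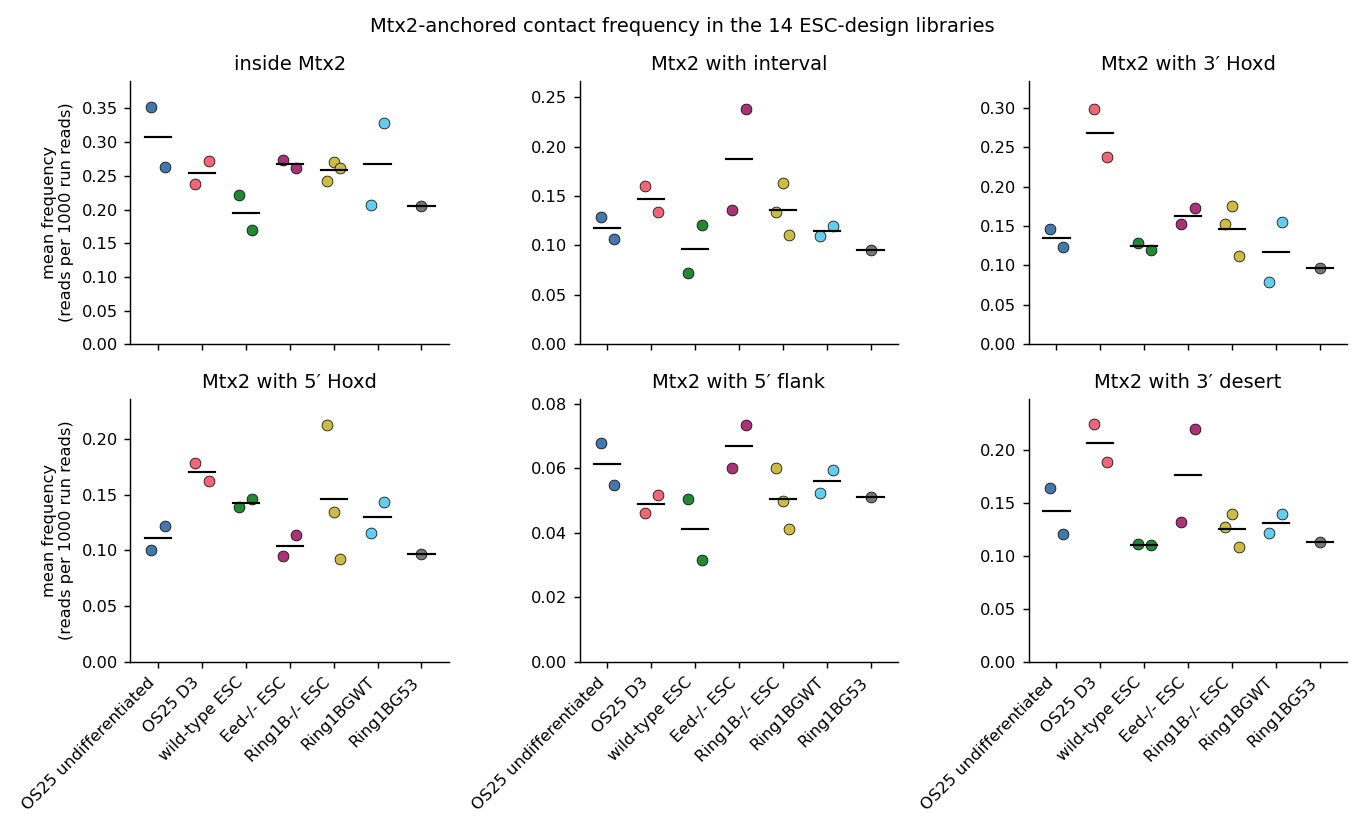
Frequency of Mtx2-anchored contacts (reads per 1000 run reads, linear axes from 0) in 6 windows, with 1 point per ESC library and a bar at each group mean. D3 libraries lie at 0.237 and 0.298 in the 3′ Hoxd panel, above the other 12 libraries, and the 5′ flank panel stays at or under 0.0734 in all 14.

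D3 cells had the highest contact of Mtx2 with 3′ Hoxd among the ESC groups. Undifferentiated OS25 libraries were at 0.147 and 0.123, and D3 libraries at 0.298 and 0.237. Both D3 libraries were above both undifferentiated ones, with means of 0.268 ± 0.0430 and 0.135 ± 0.0165 (SD, n = 2 each). The log2 difference was 0.89 (SE 0.273, 95% interval 0.32 to 1.46), which did not pass after adjustment over the 21 window pairs of the region and all 5 ESC comparisons (limma, adjusted p = 0.0505). It lay so near the threshold that 7 of 13 other ways of processing put it below 0.05, as did leaving out any 1 of 5 libraries of other groups, which were both Eed-/-, both Ring1BGWT and the unnumbered Ring1B-/- library (adjusted p 0.00638 to 0.0441). When 1 of the 4 libraries compared was left out, the difference stayed between 0.74 and 1.04 with adjusted p from 0.0642 to 0.265.

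Contacts with 5′ Hoxd were at 0.1005 and 0.122 in undifferentiated cells and at 0.178 and 0.163 in D3 cells, a log2 difference of 0.54 (adjusted p = 0.252). Contacts with the 3′ desert were at 0.164 and 0.121 against 0.224 and 0.189 (0.49, adjusted p = 0.252). In neither window did the groups overlap, but neither difference passed the test. Contacts inside the gene were at 0.353 and 0.263 against 0.238 and 0.271 (-0.24, adjusted p = 0.555), and the groups overlapped. The 5′ flank was at 0.0679 and 0.0547 against 0.0461 and 0.0519 (-0.23, adjusted p = 0.555). The interval was at 0.129 and 0.107 against 0.160 and 0.134 (0.28, adjusted p = 0.555).

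Of the 6 windows of Mtx2 none passed in D3 cells by limma, and 1 had an unadjusted p below 0.05. Over the 21 window pairs of the region, 4 had an unadjusted p below 0.05 and 4.76% passed in this comparison. The groups did not overlap in 5 of the 6 windows, but they did not in 61.9% of all window pairs either. Counted by fragment pair, D3 libraries were both above the undifferentiated ones in 24 of 60 pairs with 3′ Hoxd, in 58 of 240 with the 3′ desert (24.2%), in 13 of 61 with 5′ Hoxd, in 17 of 83 with the interval, in 1 of 15 inside Mtx2 and in 6 of 226 with the 5′ flank (2.65%). The share over all pairs of the region was 14.1%, and over all anchored pairs it was 17.4%. Both D3 libraries were lower in 17 of 226 pairs with the 5′ flank (7.52%), where 9.15% of all pairs were lower. The shares of 3′ Hoxd, the 3′ desert, 5′ Hoxd (21.3%) and the interval thus lay above the share of the whole region, and those inside Mtx2 (6.67%) and with the 5′ flank below it.

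Within 3′ Hoxd the D3 libraries were both higher at 9 of 11 partner fragments. Elsewhere they were so at 20 of 44 in the 3′ desert, 3 of 11 in 5′ Hoxd, 3 of 15 in the interval and 3 of 41 in the 5′ flank. They were both lower at 4 of 44 in the 3′ desert, at 11 of 41 in the 5′ flank and at none in 3′ Hoxd, 5′ Hoxd and the interval. Partner fragments were counted for Mtx2 alone, so that no share over the region stands beside these counts. They are given as a description and do not rank the windows. The fragment mHoxD_92, in the long Hoxd3 annotation, contacted Mtx2 at 0.182 and 0.0903 in undifferentiated cells and at 0.536 and 0.414 in D3 cells. The Hoxd1 fragment mHoxD_94 was at 0.183 and 0.207 against 0.405 and 0.289. The fragment mHoxD_85, shared by Hoxd3 and Hoxd4, was at 0.123 and 0.188 against 0.290 and 0.361. In each of these 3, chosen after their values had been seen, both D3 libraries were above both undifferentiated ones. The libraries overlapped at mHoxD_82, with 0.168 and 0.170 against 0.149 and 0.272, and at mHoxD_93, with 0.195 and 0.0581 against 0.344 and 0.145.

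**Figure D2:**
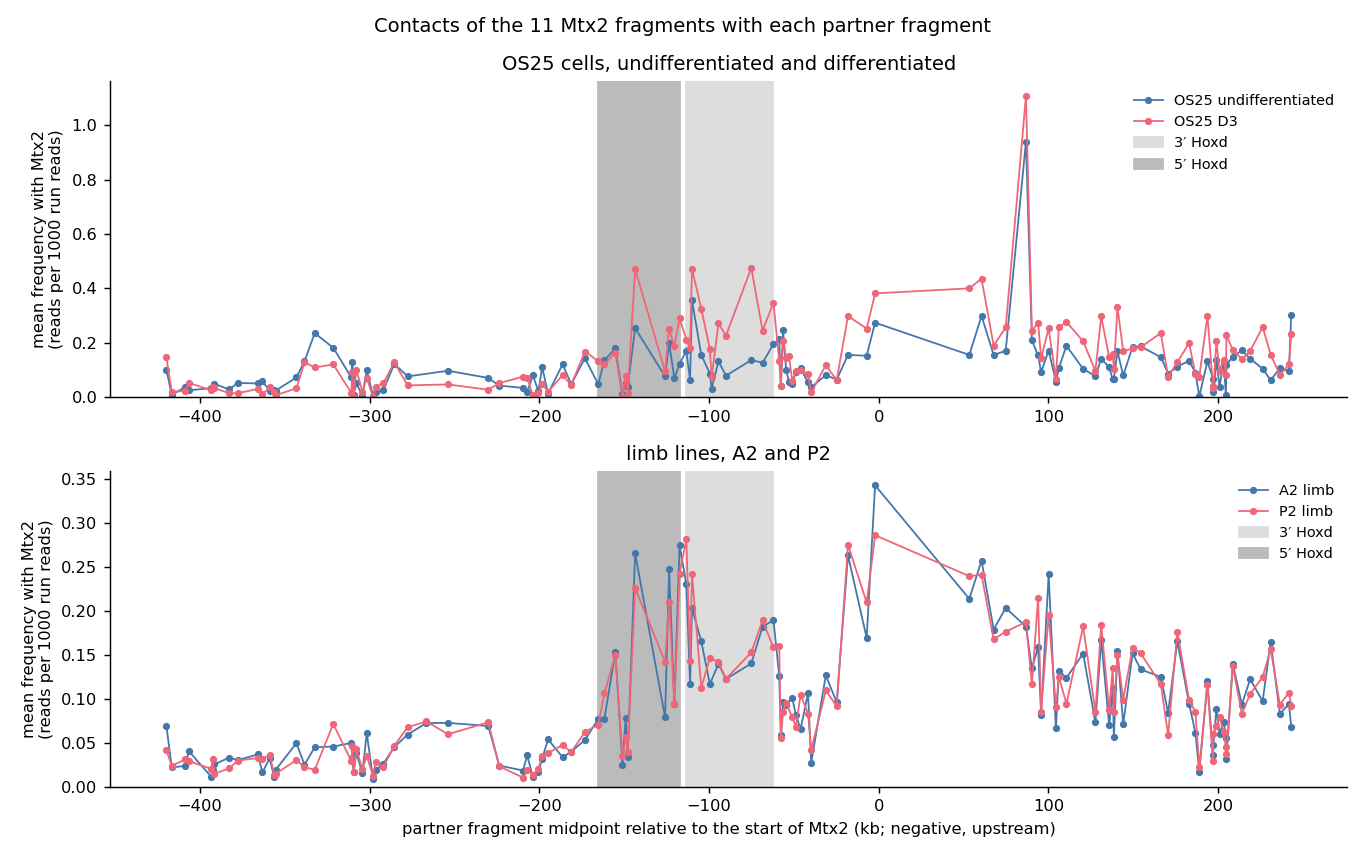
Mean frequency of contacts with Mtx2 (reads per 1000 run reads) for each partner fragment against its distance from the start of Mtx2 (kb), with 1 line per group. Undifferentiated and D3 OS25 cells are above and A2 and P2 limb cells below. The D3 line runs above the undifferentiated one over much of 3′ Hoxd. At mHoxD_92, for example, the libraries behind the lines were at 0.536 and 0.414 against 0.182 and 0.0903.

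In Eed-/- cells the libraries did not overlap with wild-type ones in any of the 6 windows, nor in 71.4% of all window pairs, and none passed the test. Contacts with the interval were at 0.136 and 0.238 in Eed-/- libraries and at 0.0717 and 0.121 in wild-type libraries, with means of 0.187 ± 0.0724 and 0.0963 ± 0.0348 (SD, n = 2 each). The log2 difference was 0.82 (SE 0.276, adjusted p = 0.0659). Contacts with the 3′ desert were at 0.132 and 0.220 against 0.111 and 0.110 (0.55, adjusted p = 0.197), and those with the 5′ flank at 0.0601 and 0.0734 against 0.0506 and 0.0317 (0.52, adjusted p = 0.197). Single libraries decided these values. Without the second Eed-/- library the interval difference was 0.45 (adjusted p = 0.429) and the desert difference 0.22 (adjusted p = 0.668). Without the first, they were 1.18 (adjusted p = 0.0188) and 0.88 (adjusted p = 0.0491). Without the first wild-type library the interval difference was 0.51 (adjusted p = 0.412).

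The windows of the cluster went in both directions. Contacts with 5′ Hoxd were lower in Eed-/- cells, at 0.0949 and 0.114 against 0.139 and 0.146 (log2 difference -0.39, adjusted p = 0.427). Contacts with 3′ Hoxd were at 0.152 and 0.173 against 0.129 and 0.120 (0.34, adjusted p = 0.472). Contacts inside Mtx2 were at 0.273 and 0.262 against 0.222 and 0.169 (0.43, adjusted p = 0.323). The count of windows with an unadjusted p below 0.05 was 3 of 6, against 7 of 21 window pairs of the region (33.3%), and 14.3% of all window pairs passed after adjustment. Eed-/- libraries were both above wild-type ones in 76 of 685 anchored pairs (11.1%) against 8.56% of all pairs, among them 35 of 240 with the 3′ desert (14.6%), 10 of 83 with the interval and 5 of 15 inside the gene (33.3%). Scaling each library by its summed contacts in place of its run total moved the median of all window pairs by 0.21 in this comparison. On that scale the interval, 3′ desert and 5′ flank differences were 1.03, 0.75 and 0.69 (adjusted p = 0.0117, 0.0156 and 0.0265). Scaling primers to equal means turned the 3′ desert to -0.41 and the 5′ flank to -0.070, and left 0.10 for the interval.

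No Mtx2 window passed between Ring1B-/- and wild-type cells. Ring1B-/- libraries, the one with no number in its title last, were at 0.175, 0.112 and 0.153 for 3′ Hoxd, at 0.163, 0.111 and 0.134 for the interval, and at 0.270, 0.262 and 0.242 inside the gene. Log2 differences ran from -0.03 to 0.44 over the 6 windows (adjusted p 0.318 to 0.960), and their 95% intervals together covered -0.57 to 0.97. By limma 0 of 6 passed and 0 had an unadjusted p below 0.05, beside 4.76% of window pairs of the region that passed. The groups did not overlap in 1 window, inside Mtx2, and in 33.3% of all window pairs. Ring1B-/- libraries were above wild-type ones in 62 of 685 anchored pairs (9.05%), the share of all pairs being 9.08%, and in 12 of 60 with 3′ Hoxd (20.0%).

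Ring1BGWT libraries, compared with Ring1B-/-, were at 0.0787 and 0.156 for 3′ Hoxd and at 0.207 and 0.329 inside Mtx2, so that both libraries of the group lay far apart. Log2 differences ran from -0.32 to 0.12 (adjusted p 0.472 to 0.960, intervals -0.84 to 0.57), 0 windows passed or had an unadjusted p below 0.05 by limma, and the groups overlapped in each of the 6, whereas 28.6% of all window pairs did not overlap. The share of window pairs of the region that passed was 9.52%. Ring1BGWT libraries were both below the Ring1B-/- ones in 47 of 685 anchored pairs (6.86%), where 8.14% of all pairs were, and in 10 of 60 with 3′ Hoxd (16.7%). The lone Ring1BG53 library was at 0.0970 for 3′ Hoxd, 0.0970 for 5′ Hoxd, 0.0953 for the interval and 0.205 inside the gene. Its log2 differences to the mean of Ring1B-/- libraries ran from -0.49 to 0.02. With 1 library these differences have no replicate check.

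No window of Mtx2 passed between A2 and P2 cells. Log2 differences of P2 to A2 ran from -0.22 inside Mtx2 to 0.07 for 3′ Hoxd (adjusted p 0.927 to 0.934), and their 95% intervals together covered -0.59 to 0.45. By limma 0 of 7 passed, 0 had an unadjusted p below 0.05, and 3.57% of all window pairs of the limb region passed. The groups did not overlap in 2 of 7 windows, inside Mtx2 and the far 5′ desert, with P2 the lower in both, where 28.6% of all window pairs did not overlap. P2 libraries were both higher in 162 of 1071 anchored pairs and both lower in 154, shares of 15.1% and 14.4% that equal those of all pairs, 15.1% and 14.4%. With 3′ Hoxd they were higher in 15 of 54 pairs (27.8%), and inside Mtx2 lower in 5 of 15 (33.3%). The first A2 and the first P2 library correlated best of all limb library pairs (r = 0.802), above either pair of the same line.

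**Figure D3:**
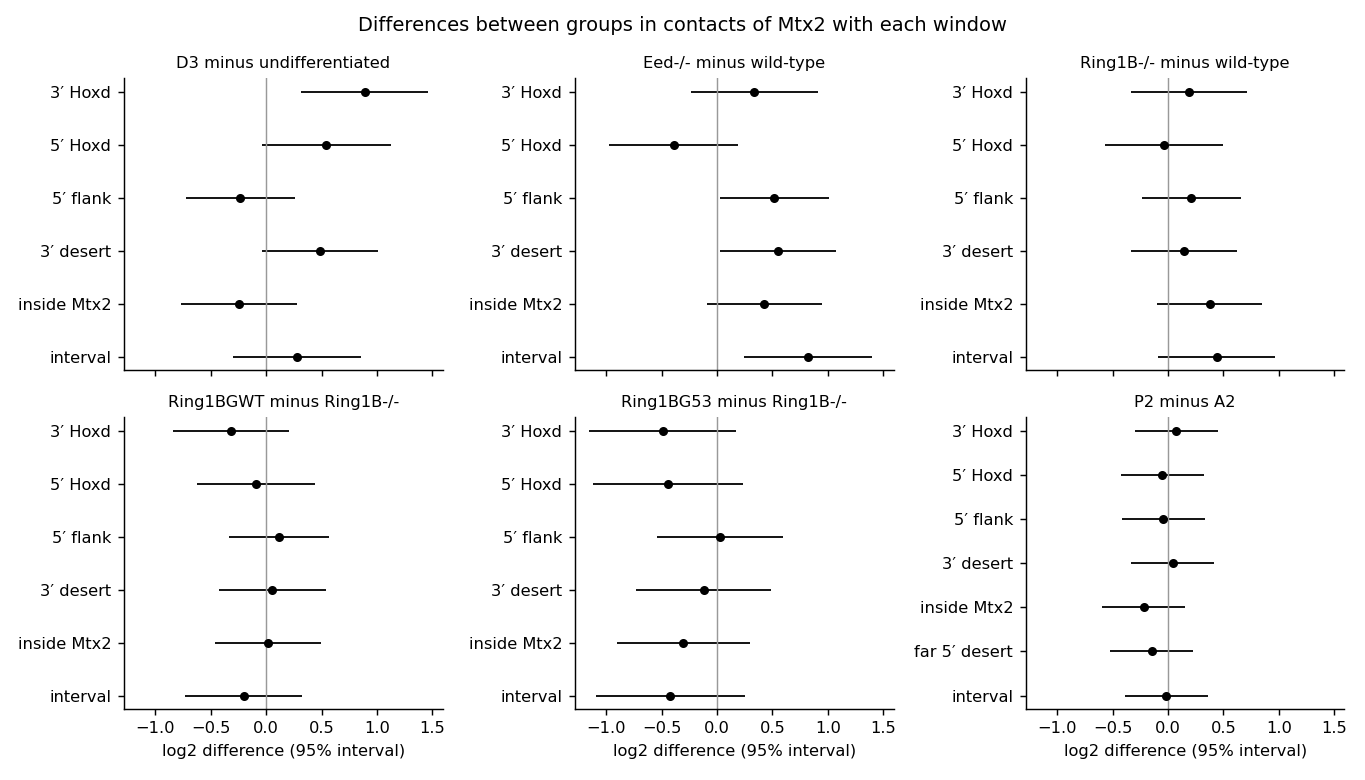
Log2 differences in the frequency of Mtx2-anchored contacts between groups, with 95% intervals from limma, for 5 ESC comparisons and P2 minus A2, by window. Intervals of Ring1BG53, a single library, assume that it varies like the other groups. The interval of 3′ Hoxd in D3 minus undifferentiated cells runs from 0.32 to 1.46, and none of the differences between replicated groups passed the adjusted threshold.

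In 20-kb bins none of the bin pairs with Mtx2 passed. Mean frequency was above 0.02 in 94 of 97 Mtx2 bin pairs of the ESC design and in 153 of 172 of the limb design, and these were tested among 564 and 1633 bin pairs. By limma 0 Mtx2 bin pairs passed in D3 cells (0% of all), 0 in Eed-/- (0.887% of all) and 0 in the Ring1B-/-, Ring1BGWT and P2 comparisons (0% of all in each). An unadjusted p below 0.05 was seen in 1 Mtx2 bin pair for D3 minus undifferentiated (1.06%, against 3.9% of all bin pairs), in 8 for Eed-/- minus wild-type (8.51% against 9.22%) and in 6 for Ring1B-/- minus wild-type (6.38% against 7.27%). It was seen in 5 for Ring1BGWT minus Ring1B-/- (5.32% against 7.98%) and in 8 for P2 minus A2 (5.23% against 2.57%). Among these comparisons the share was above that of all bin pairs in the limb comparison alone. Ring1BG53, a single library, is not part of this statement. The lowest adjusted p of an Mtx2 bin pair was 0.0869, in Eed-/- cells.

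Whether Mtx2 leans towards one side was read from ratios within a library, which do not depend on its scaling. Contacts with the 3′ desert over those with the interval and the cluster at matched distances were 0.710 to 1.29 in ESC libraries and above 1 in 8 of 14. In limb libraries they were 0.669 to 0.971 and below 1 in 4 of 4. Distance classes weigh equally in this ratio, and that of 10 to 20 kb holds 1 pair on the side of the cluster. This pair, mHoxD_118 with mHoxD_120, ran from 0.238 to 0.892 over limb libraries. None of the groups differed from 1 by limma, the limb values being -0.44 in A2 (adjusted p = 0.198) and -0.25 in P2 on the log2 scale. With primers scaled to equal means, the limb ratio was 0.911 to 1.02 and the ESC ratio 0.885 to 1.84, above 1 in 1 of 4 and 11 of 14.

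Contacts of Mtx2 within its surroundings, over contacts among the surroundings themselves, were 0.857 to 1.63 in ESC libraries and 0.862 to 0.946 in limb libraries. Limb libraries were thus below 1 in 4 of 4, but with primers scaled to equal means they were at 1.00 to 1.07, so that the direction turned with the scaling of primers. On the scale as deposited, leaving out the first A2 library brought P2 (-0.21) and the lone A2 library (-0.19) past the threshold (adjusted p = 0.0144 for both). Without the second A2 library the A2 level was -0.081 (adjusted p = 0.0465), P2 was at -0.21 (adjusted p = 0.0159) and their difference was -0.13 (adjusted p = 0.0312). In Eed-/- cells the ratio was highest, at a log2 level of 0.45 (adjusted p = 0.0711 against 0) and 0.59 above wild-type cells (adjusted p = 0.120). Without the first Eed-/- library the second of these was 0.84 (adjusted p = 0.00667), and without the second library 0.33 (adjusted p = 0.332).

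Contacts with 3′ Hoxd over those with 5′ Hoxd had a median of 1.15 in ESC libraries (0.679 to 1.67, above 1 in 9 of 14). The log2 level was 0.64 in D3 and 0.64 in Eed-/- cells, with an adjusted p of 0.0711 in each. The D3 ratio was 0.36 above that of undifferentiated cells (adjusted p = 0.736), and the Eed-/- ratio 0.84 above that of wild-type cells (adjusted p = 0.120). In limb libraries it was 0.963 to 1.49, and with primers scaled to equal means 1.39 to 1.72, above 1 in 4 of 4. None of these ratios or differences passed on the scale as deposited. With primers scaled to equal means 2 limb levels did, and the P2 level of 3′ over 5′ Hoxd was then 0.72 on the log2 scale (adjusted p = 0.000412) against 0.38 (adjusted p = 0.215) as deposited. On the deposited scale, without the unnumbered Ring1B-/- library the D3 and Eed-/- levels had an adjusted p of 0.0251.

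The frequency of Mtx2 contacts did not fall evenly with distance on the side of the cluster. At 150 to 190 kb upstream of the anchoring fragment, which covers much of HoxD, the limb median was 0.154, against 0.0828 at the same distance downstream. At 190 to 250 kb it was 0.0515 upstream and 0.105 downstream. Upstream this class holds pairs with the 5′ flank and also pairs with 5′ Hoxd, which reach 217 kb, so that it does not start at the end of the cluster. The step from the nearer to the farther of these classes was 2.60 to 3.53 fold upstream in limb libraries and 1.22 to 3.36 fold in ESC libraries, above 1 in 4 of 4 and 14 of 14. Downstream the same ratio was 0.658 to 0.944 in limb and 0.510 to 1.29 in ESC libraries, above 1 in 0 of 4 and 3 of 14. With primers scaled to equal means the upstream step was 1.89 to 2.50 fold in limb and 0.928 to 2.04 fold in ESC libraries, above 1 in 4 of 4 and 12 of 14. The downstream ratio was then 0.941 to 1.35 in limb and 0.804 to 2.11 in ESC libraries, above 1 in 2 of 4 and 10 of 14. In ESC libraries the ranges of both sides thus overlapped on that scale, whereas in limb libraries they did not. These classes were singled out after their values had been seen, and the step carries no test.

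Upstream contacts exceeded downstream ones at 110 to 150 kb in 12 of 14 ESC and 4 of 4 limb libraries, and at 150 to 190 kb in 13 of 14 and 4 of 4. At 190 to 250 kb they did so in 1 of 14 and 0 of 4. With primers scaled to equal means the excess at 150 to 190 kb was seen in 1 of 14 ESC and 1 of 4 limb libraries. By construction that scaling also removes part of a level shared by neighbouring fragments.

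**Figure D4:**
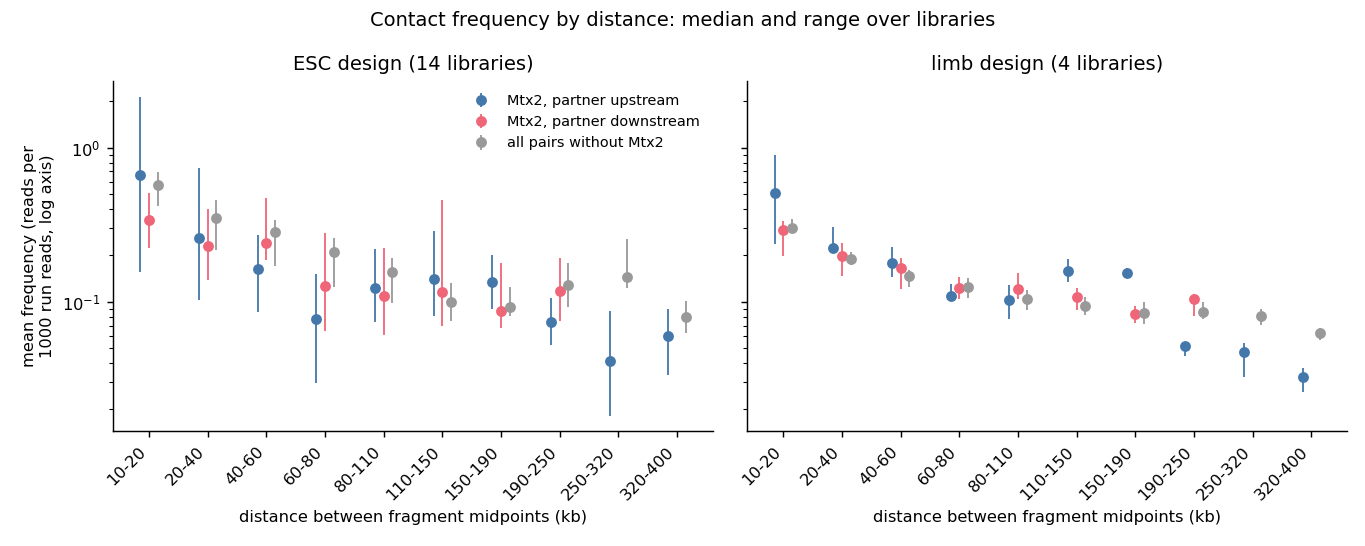
Frequency of Mtx2-anchored contacts (reads per 1000 run reads, log axis) by distance class (kb), upstream towards HoxD and downstream into the 3′ desert, beside all other pairs. Points are medians over libraries and bars the range, for ESC and limb designs. In limb cells the upstream median drops from 0.154 at 150 to 190 kb to 0.0515 at 190 to 250 kb, while the downstream median goes from 0.0828 to 0.105.

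Among single genes of the region, Hoxd11, a gene of 5′ Hoxd with roles in limb and kidney, was the partner of highest frequency per pair. Its mean was 0.321 ± 0.186 (SD, n = 14) in ESC and 0.245 ± 0.0321 (SD, n = 4) in limb libraries. In ESC groups its mean was 0.254 in undifferentiated, 0.470 in D3, 0.365 in wild-type, 0.125 in Eed-/-, 0.304 in Ring1B-/-, 0.515 in Ring1BGWT and 0.130 in Ring1BG53 cells. Undifferentiated libraries, at 0.120 and 0.386, overlapped with D3 ones, at 0.342 and 0.598. Ring1B-/- libraries ran from 0.173 to 0.544 and overlapped with wild-type ones, at 0.268 and 0.462. Eed-/- libraries, at 0.131 and 0.118, were below both wild-type ones. The values of Hoxd11 rest on 1 fragment and 6 fragment pairs. Over all pairs of that fragment in the region, the mean was 0.695 in ESC and 0.259 in limb libraries. These were the highest of all genes listed here, so that the rank of Hoxd11 is not particular to its contacts with Mtx2. Hoxd1, the gene of the cluster nearest to Mtx2, had 0.193 in ESC and 0.174 in limb libraries. In D3 cells it was at 0.405 and 0.289, against 0.183 and 0.207 in undifferentiated cells. In Eed-/- cells it was at 0.0602 and 0.0176, against 0.0566 and 0.105 in wild-type cells, and these groups overlapped. These Hoxd1 values rest on 5 fragment pairs.

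Other genes were lower. In ESC libraries Hoxd8 was at 0.163, Hoxd13 at 0.160, Hoxd3 at 0.143, Evx2 at 0.138, Hoxd9 at 0.0943, Hoxd4 at 0.0704, Hoxd12 at 0.0532 and Lnp at 0.0523. In limb libraries Hoxd3 was at 0.160, Hoxd13 at 0.152, Hoxd4 at 0.131, Hoxd9 at 0.110, Hoxd8 at 0.0942, Hoxd12 at 0.0669, Evx2 at 0.0577 and Lnp at 0.0409. Hoxd9 stood at 0.0156 in wild-type and 0.190 in Ring1B-/- cells, on 5 fragment pairs and singled out after its values had been seen. Evx2 ran from 0 to 0.381 over ESC libraries. Hoxd13, Hoxd12, Hoxd11, Hoxd9, Hoxd8, Hoxd1 and Evx2 have 1 fragment each, so that their order rests on single primers, and neighbours in it do not differ beyond the spread between libraries.

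Of the 10 genes, Lnp was most like Mtx2 in how its own anchored frequency varied over libraries, with r = 0.43 over 14 ESC libraries and 0.95 over 4 limb libraries. Lnp and Mtx2 lie on opposite sides of the cluster. Hoxd3 (-0.12) and Hoxd4 (-0.13) came next in ESC libraries, Hoxd1 (0.84) and Hoxd4 (0.70) in limb libraries. All genes share each library's run total, and frequencies are parts of one sum, so that a gain of one gene lowers others.

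Fragments of Mtx2 differed among themselves. In ESC libraries the intronic fragment mHoxD_125 had the highest mean, 0.223 ± 0.0592 (SD, n = 14), and mHoxD_130, an intronic fragment of 440 bp, the lowest, 0.0446 ± 0.0130. In limb libraries mHoxD_125 was at 0.0556 ± 0.00537 (SD, n = 4), the third lowest of the 11, and mHoxD_132 over exon 10 was highest at 0.0975 ± 0.0204. The rest ran from 0.0719 to 0.153 in ESC and from 0.0424 to 0.0938 in limb libraries. The means of the 11 fragments correlated at r = 0.33 between designs. With the log10 of fragment length they correlated at r = 0.36 in ESC and at 0.78 in limb libraries, where longer fragments had more reads. In ESCs mHoxD_125 also contacted the 5′ flank at 0.225, as high as the 3′ desert at 0.222, whereas mHoxD_120 was at 0.0388 and 0.134 and mHoxD_124 at 0.0429 and 0.144. With the 5′ flank all other Mtx2 fragments lay between 0.0147 (mHoxD_127) and 0.0629 (mHoxD_131) in ESCs. The ESC values of that window thus lean on mHoxD_125, which was at 0.0404 with the 5′ flank in limb libraries.

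Few pairs held much of the signal in ESCs. The strongest 10% of anchored pairs carried 34.4% to 65.0% of the anchored signal in ESC libraries and 34.6% to 40.2% in limb libraries. The strongest pair was mHoxD_127 with mHoxD_139, 49.7 kb apart, the first pair of the sequences above. It was at 6.97 and 2.58 in undifferentiated, 6.99 and 3.00 in D3, 2.05 and 2.51 in wild-type, 2.42 and 2.33 in Eed-/-, 0.634, 3.72 and 1.66 in Ring1B-/-, 2.69 and 4.42 in Ring1BGWT and 3.33 in Ring1BG53 cells. It ranked first of all anchored pairs in 11 of 14 ESC libraries and held 4.11% of the anchored signal. In limb cells it was at 0.206 and 0.120 in A2 and at 0.198 and 0.128 in P2. Every ESC library was thus above every limb library for this pair of fragments, in designs with different primer sets.

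A pair of high frequency in 1 library was mHoxD_133 with mHoxD_158, 114 kb apart, from exon 10 of Mtx2 into the 3′ desert. In the second Eed-/- library it was at 11.8 (10689 reads) and made up 22.3% of the signal of the desert window. In each of the other 13 ESC libraries it was at or below 0.623, with no read in 4 of them, the first Eed-/- library included. In limb libraries it was at 0.127 to 0.141. Without this pair the 3′ desert difference of Eed-/- to wild-type cells went from 0.55 to 0.38 (adjusted p = 0.336).

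A pair that differed widely within groups was mHoxD_98 with mHoxD_129, 97.3 kb apart, from just beyond Hoxd1 to exon 5. In libraries whose title carries the word replicate it was at 2.25 in undifferentiated, 1.30 in D3, 1.01 in wild-type and 3.98 in Eed-/- cells. In their counterparts without the word it was at 0.188, 0.207, 0.0995 and 0.182. Ring1BGWT libraries were at 0.467 with the word and 0.171 without it, and the Ring1BG53 library, without it, at 0.487. The order was not the same elsewhere, since the Ring1B-/- library without the word was at 0.807 and those with it at 0.391 and 0.750. In limb cells the libraries with the word were the lower, at 0.0195 against 0.129 in A2 and at 0.0811 against 0.132 in P2. The part of the title in these values was not tested. This pair made up 20.1% of the interval signal of the second Eed-/- library, and without it the interval difference of Eed-/- to wild-type cells went from 0.82 to 0.74 (adjusted p = 0.110).

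**Figure D5:**
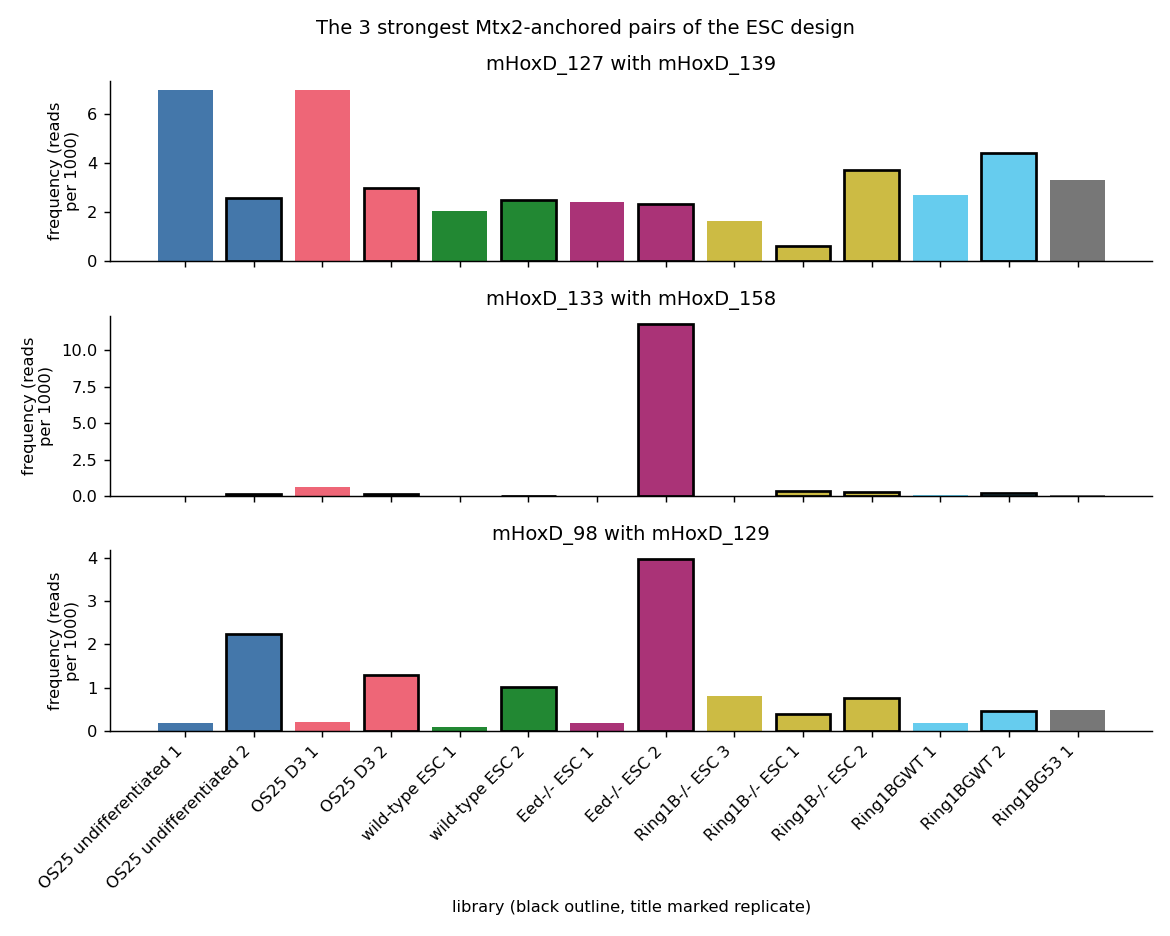
Frequency (reads per 1000 run reads) of 3 Mtx2-anchored fragment pairs in each of the 14 ESC libraries, coloured by group, with a black outline where the title carries the word replicate. The pair mHoxD_127 with mHoxD_139 runs from 0.634 to 6.99, mHoxD_133 with mHoxD_158 reaches 11.8 in 1 Eed-/- library, and mHoxD_98 with mHoxD_129 is above 1 in 4 outlined libraries.

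The remaining strong pairs of the ESC design were mHoxD_132 with mHoxD_135 (11.6 kb, mean 0.771 ± 0.386) and mHoxD_26 with mHoxD_131 (377 kb, 0.704 ± 0.518), which reaches from exons 6 to 9 into the 5′ flank. In limb cells mHoxD_26 with mHoxD_131 was at 0.0148 to 0.128. The strongest limb pairs were mHoxD_118 with mHoxD_120 (10.7 kb, 0.538 ± 0.270), mHoxD_132 with mHoxD_135 (0.533 ± 0.180), mHoxD_82 with mHoxD_132 (162 kb, 0.423 ± 0.0737), mHoxD_124 with mHoxD_132 (0.383 ± 0.109) and mHoxD_132 with mHoxD_137 (0.379 ± 0.0860; SD, n = 4). The exon 10 fragment mHoxD_132 was thus an end of 4 of these 5. Its contact with mHoxD_82, between Hoxd8 and Hoxd4, was at 0.466 and 0.320 in A2 and at 0.422 and 0.485 in P2. The lines overlapped. In ESC libraries that pair had a median of 0.228 and no read in 2 libraries.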

How the data were processed

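Deposited matrices hold signal values, 1 symmetric matrix per library. The authors passed Ion Torrent reads through a Torrent 5C transformation pipeline on Galaxy, and gave each contact as its share of all reads of the run, times 1000. Builds in the submitters' processing notes and in the headers are mm9. No aligner is given in the sources used here. Fragments were assigned by midpoint, and primer directions were inferred from which pairs hold contacts. In the limb design this gave 100 forward and 103 reverse fragments, which is not the split that the study states. The direction of a limb fragment may thus be wrong, and the pair counts of that design carry this uncertainty. Totals were recovered from the step between values, from which no value was off by more than 4.8e-06 reads. No library was a copy of another.

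Groups came from titles. Means over fragment pairs were compared as log2(frequency + 0.02), so that differences of low values are understated, by two-sided tests in limma 3.58.1 (R 4.3.3), with the spread from all 14 ESC or all 4 limb libraries. Benjamini-Hochberg adjustment, with a threshold of 0.05, ran over all window pairs and comparisons of a design, over all ratios, and over all bin pairs of a comparison. Windows of one library share reads and are not independent. P-values measure the spread between these libraries only. Bins were 20 kb outside the gene and 3 equal bins within it, with a mean over libraries above 0.02. Text names all windows, the Mtx2 fragments, the 5 strongest anchored pairs per design, bin pairs past the threshold, and the 3 genes most like Mtx2 by Pearson correlation, plus items said to be chosen after their values were seen. Members and lists were chosen with earlier results of these data known. Tables were made with Python 3.11.15, numpy 2.4.6 and pandas 2.3.3, and the procedure was tested on simulated data. Alternatives covered scaling, pseudocount, minimum distance, extreme pairs, primer efficiency, membership, bins, the libraries in the fit, a replicate block and single libraries or pairs left out. Groups of 2 or 3 libraries are too small for a test of outlying libraries.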

Additional observations from a re-analysis of the deposited data

How the results depend on the processing

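Each difference, ratio and count was recomputed under the alternatives, 389 values for 27 results, of which 343 kept their direction and their side of the threshold (counts: within 1.5 times). The count of Mtx2 windows that passed in ESCs, 0 in the report, was 4 with libraries scaled to summed contacts, 2 with a pseudocount of 0.005, 2 with primers scaled to equal means, 2 with a minimum distance of 20 kb, 2 with none, 1 with extreme pairs set to the 99th percentile, 2 with only the groups compared in the fit, and 0 to 3 with 1 library left out (3 without the first and 1 without the second Eed-/-, 2 without the unnumbered Ring1B-/- and 1 without either Ring1BGWT library). Contacts with 3′ Hoxd in D3 minus undifferentiated cells passed at 0.85 (scaled to summed contacts), 0.96 (pseudocount 0.005), 0.83 (primers), and 0.89 (20 kb, no minimum, extreme pairs, only the groups compared), with adjusted p from 0.00567 to 0.0388 for all but the 20 kb minimum (0.0427), and did not at 0.64 with a pseudocount of 0.1 (adjusted p = 0.0722). Contacts with the interval in Eed-/- minus wild-type cells passed at 1.03 (scaled to summed contacts), 0.91 (pseudocount 0.005) and 0.82 (no minimum, only the groups compared), were 0.10 with primers scaled to equal means, and ran from 0.45 to 1.18 with 1 library left out. Scaling primers to equal means turned 2 Eed-/- differences, those with the 3′ desert to -0.41 and with the 5′ flank to -0.070. By construction it fixes the mean of every primer, and whether efficiency or contacts caused these changes was not tested.

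Ratio differences that passed in ESCs, 0 in the report, were 1 with only the groups compared and 0 to 1 with 1 library left out, and in limb cells 0 to 1 (1 without the second A2 library). Ratio levels that passed, 0 in the report, were 3 in ESCs with a minimum distance of 20 kb and 2 in limb cells with primers scaled to equal means, and 0 to 2 in each design with 1 library left out. Of Eed-/- bin pairs with Mtx2, 1 passed when scaled to summed contacts, 1 with a pseudocount of 0.005 and 1 with 0.1. The sign changed in 24 of 468 recomputed window differences and in 17 of 345 recomputed ratios, at adjusted p of 0.0516 or more. Scaling to summed contacts moved the median of all window pairs by -0.15 in Ring1BGWT minus Ring1B-/-. Leaving out the 3 single pairs was chosen after seeing the data.

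Titles mark libraries as a replicate or not. Marked minus unmarked differences correlated between groups at -0.00809 to 0.0882 in ESCs, Ring1B-/- and Ring1BG53 left out, and at 0.0735 in limb cells. Over all pairs of the region little difference was thus shared along the mark. Single pairs such as mHoxD_98 with mHoxD_129 did differ with it in several groups, and whether marked libraries share a batch was not tested. With the mark as a replicate block, the D3 difference with 3′ Hoxd was 0.89 (adjusted p = 0.0554), and no count of calls changed. The planned count model on whole reads was not run. Groups of 1 to 3 libraries, reads without molecular identifiers and the zeros in the ESC design limit what can be told apart.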
